A study of Homo sapiens with 8 samples.

Results

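The 10 genes described here are the core of the YAP and TEAD transcription system and a set of its direct targets: YAP1, WWTR1, TEAD1, TEAD4, LATS2, AMOTL2, CCN1, CCN2, ANKRD1 and AXL. What is described is every H3K27ac peak lying in each gene's RefSeq span plus 100 kb either side, each peak going to the closest gene of the 10. Peaks were taken by position alone and not by a measured value, but the genes were chosen with earlier results of these data known. This gave 92 of 42552 peaks in the ARID1A knockout list and 94 of 39797 peaks in the control list, at 10 of 19970 protein-coding genes.

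H3K27ac, an acetylation of histone H3 found at active promoters and enhancers, was mapped by ChIP-seq in MDA-MB-231 cells, a human breast cancer line of the triple-negative class (no oestrogen, progesterone or HER2 receptor drive). One group was labelled as knocked out for ARID1A, which encodes a DNA-binding component of SWI/SNF remodelling complexes, and the other was labelled control (NC). There were 2 ChIP and 2 input libraries for each genotype, but a single peak list. Every value is therefore 1 per genotype with no replicate error and no test, and a difference is one between 2 lists, in which genotype, library depth and ChIP efficiency cannot be told apart. Nothing in the labels tells if the knockout cells came from 1 clone, or if replicates were separate cultures. The sample characteristics named an anti-H3K27ac antibody, while the extraction protocol named one against H3K4me3, a promoter mark.

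YAP (YAP1) and TAZ (WWTR1) are coactivators that cannot bind DNA themselves and reach their target genes through TEAD factors, often at distant enhancers. The Hippo kinases, LATS2 among them, phosphorylate both coactivators and keep them out of the nucleus, while CCN1, CCN2, ANKRD1 and AXL are standard readouts of their activity. Earlier work in other cells has described SWI/SNF complexes containing ARID1A as restraining YAP and TAZ, which makes these loci a natural place to look in ARID1A knockout cells.

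Acetylation at all 10 genes was present in both genotypes, and most of it lay at the same places. Of the 92 knockout peaks, 80 overlapped a control peak by at least 1 bp (shared) and 12 did not (knockout-only), a share of 13.0% (exact 95% binomial interval 6.93 to 21.7), against 22.4% over the whole knockout list and 20.5% of its peaks within 100 kb of any protein-coding gene. Of the 94 control peaks, 76 were shared and 18 were control-only, a share of 19.1% (11.8 to 28.6), against 18.0% over the whole control list and 17.4% near protein-coding genes. These intervals cover counting error only. In the windows of all protein-coding genes, with a peak counted once for each gene, the background was 15.2% knockout-only and 16.5% control-only. The knockout share was below each of its backgrounds, with an interval that includes all but the whole-list one, and the control share was above each of its backgrounds, with an interval that includes them all.

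**Figure D1:**
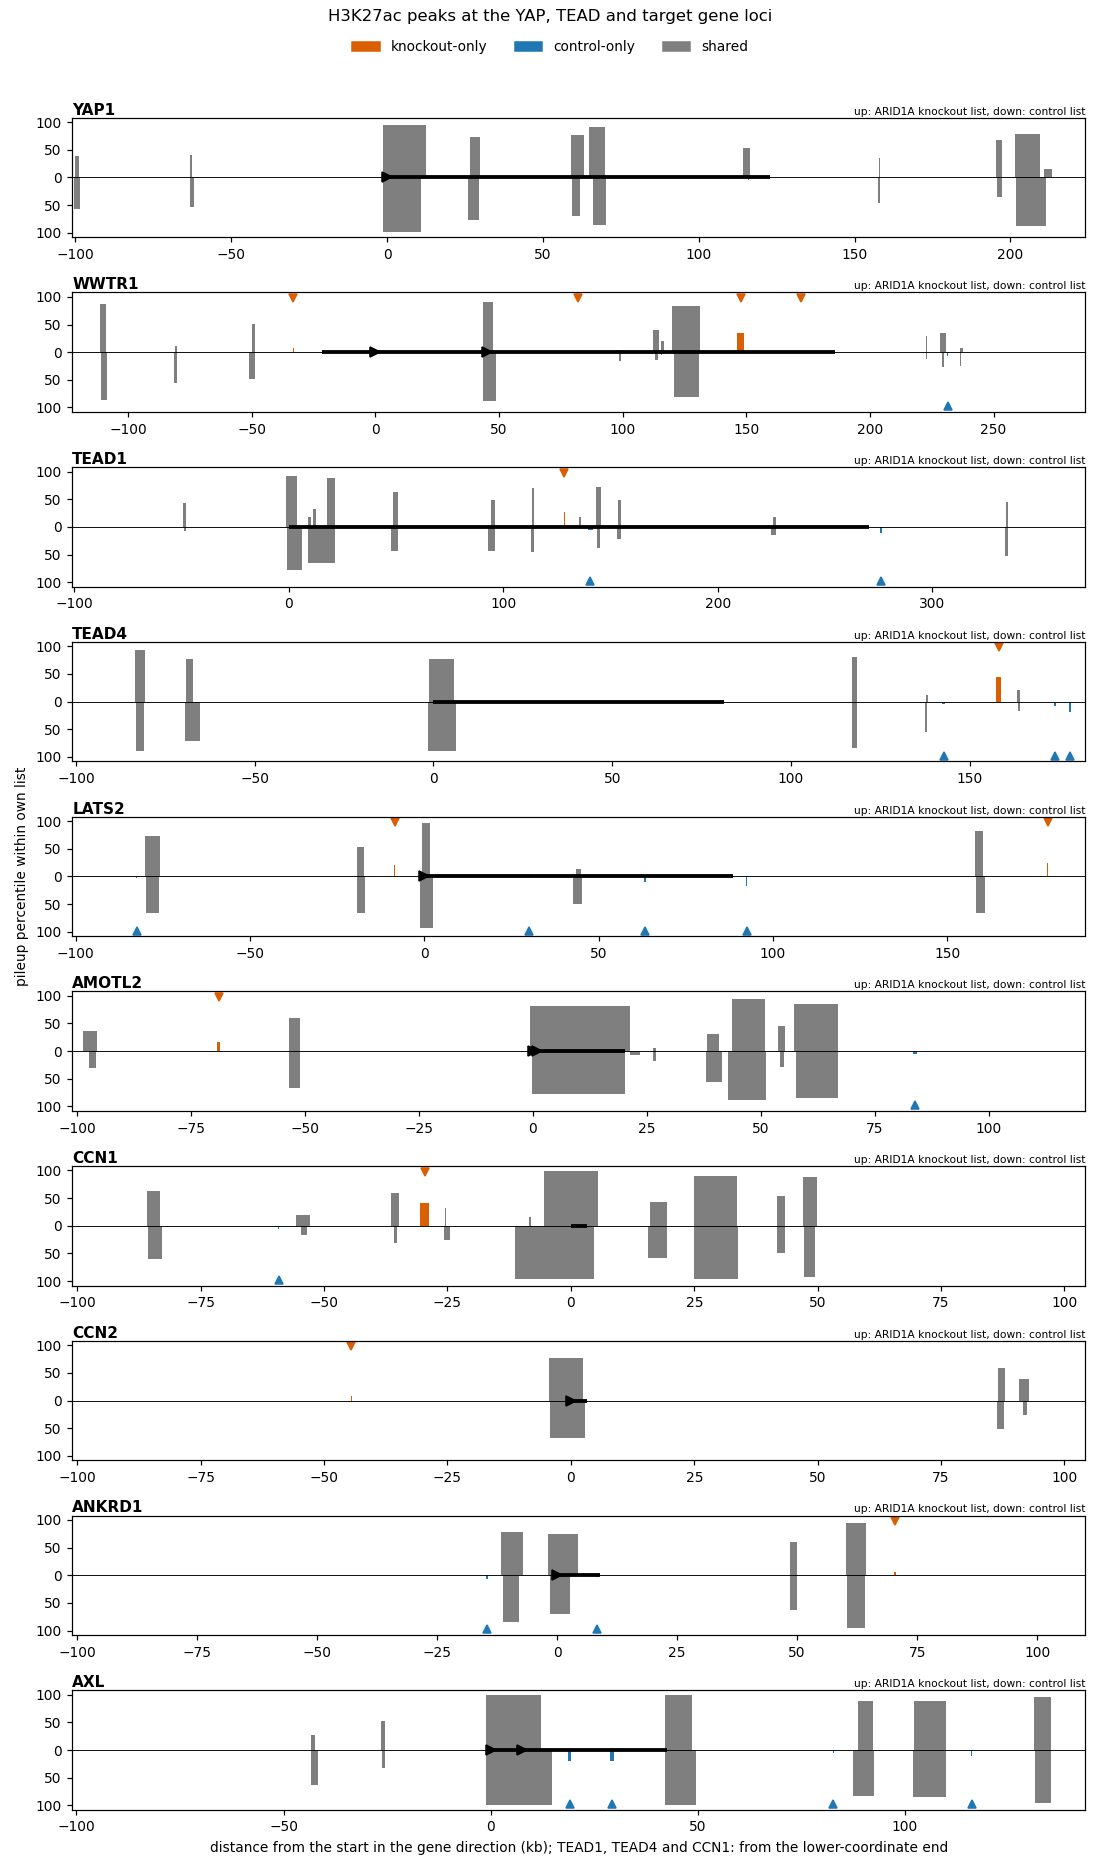
Peaks at the 10 loci, with the distance from the gene's start in kb on the x axis (for TEAD1, TEAD4 and CCN1 from the lower-coordinate end) and the percentile of each peak's pileup within its own list on the y axis, upwards for the ARID1A knockout list and downwards for the control list. Bars are peaks at their true width, triangles mark the 12 knockout-only and 18 control-only peaks, the black line is the gene and arrowheads are its starts; the tall bars are grey, that is shared, at every gene.

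The acetylated length was likewise close in both lists. Knockout peaks at the 10 genes summed to 283 kb, of which 84.0% was also covered by control peaks, and control peaks summed to 294 kb, of which 80.8% was also covered by knockout peaks. Genotype-only peaks made up 9.93 kb of the knockout length (3.51%) and 10.8 kb of the control length (3.67%), so most of the length found in 1 list alone lay in shared peaks with different edges. Wide peaks were present at several of these genes: 5 of the 92 knockout peaks (5.43%) and 6 of the 94 control peaks (6.38%) were over 10 kb, against 1.18% of the knockout list and 1.53% of the control list. The median of summed peak length per gene window was 29.3 kb in the knockout list and 31.8 kb in the control list, against 12.0 kb and 12.1 kb over all protein-coding genes in those lists.

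Genotype-only peaks were narrow and weak. The 12 knockout-only peaks had a median width of 508.5 bp and a median pileup (the fragment coverage given by the peak caller, the authors' value) of 15.9, against 2252 bp and 40.7 for the 80 shared knockout peaks. The 18 control-only peaks had a median width of 500 bp and a median pileup of 9.04, against 2338.5 bp and 27.4 for the 76 shared control peaks. Pileup is not scaled between the lists, whose medians were 32.0 in knockout and 22.7 in control, so it ranks peaks within a list and is not compared across genotypes. The strongest knockout-only peak by pileup stood at percentile 44.9 of its list, and the strongest control-only peak at percentile 20.7. Width and pileup of genotype-only peaks over the whole lists were not computed, so these values cannot be read as particular to these genes.

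Fold enrichment, again the authors' value, ranked most of them low too. In the upper 50% of each list by fold, 1 of 44 knockout peaks at these genes was knockout-only (2.27%), against 3.39% over that part of the list. No control peak of 45 was control-only there, which allows a share of up to 6.67%, against 1.52% over the list. In the lower 50%, 11 of 48 knockout peaks (22.9%; 12.0 to 37.3) were knockout-only, against 41.4% over the list. There, 18 of 49 control peaks (36.7%; 23.4 to 51.7) were control-only, against 34.4% over the list. All genotype-only peaks at these genes but 1, in the knockout list, were thus in the weaker part of their own list. The same held for most genotype-only peaks anywhere: 8805 of 9526 knockout-only and 6852 of 7155 control-only peaks were in the lower 50% of their list. It is therefore not particular to these genes.

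**Figure D2:**
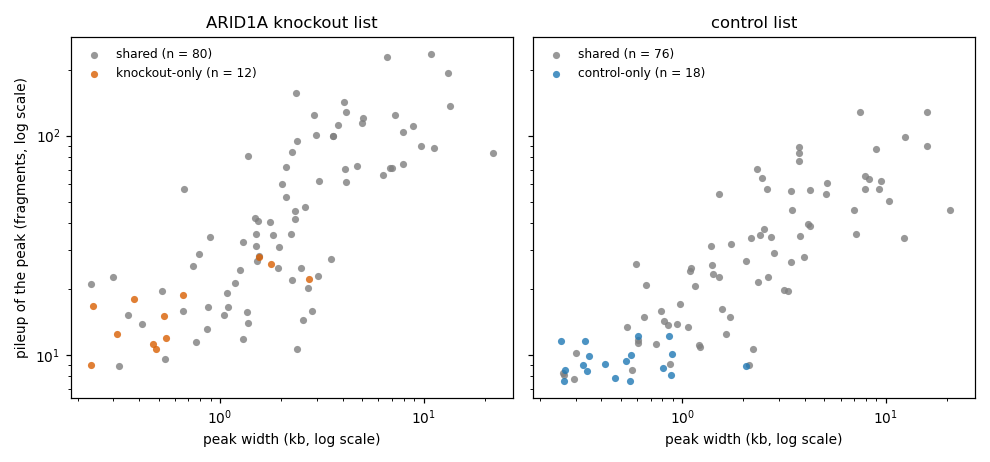
Peak width in kb (x axis, log scale) and pileup in fragments (y axis, log scale) for each peak at the 10 genes, with the ARID1A knockout list on the left and the control list on the right. Grey points are shared peaks (80 and 76) and coloured points are genotype-only peaks, which reach a pileup of 28.1 in the knockout list and 12.3 in the control list.

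The counts of genotype-only peaks depended on the threshold. Keeping in each list only peaks whose −log10 q was 5 or more, 14 of 64 knockout peaks were knockout-only (21.9%, against 23.2% over the list) and 5 of 55 control peaks were control-only (9.09%, against 10.2%). In the windows of all protein-coding genes that threshold gave 15.7% knockout-only and 8.01% control-only. In the top 30000 peaks of each list by q, 8 of 61 knockout peaks were knockout-only (13.1%, against 16.2% over those peaks) and 7 of 60 control peaks were control-only (11.7%, against 16.6%). In the windows of all protein-coding genes that setting gave 10.5% knockout-only and 13.1% control-only. The knockout share at the 10 genes was thus above that background and the control share below it. The order of the counts therefore turned round at both settings, so which genotype had more peaks of its own is not settled by these lists. The threshold of 5 bears unequally on the lists, whose median −log10 q was 15.0 in knockout and 10.6 in control.

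At least 1 start, or gene end where no start was annotated, was acetylated in both genotypes at all 10 genes. The WWTR1 start at 149703273 had no peak in either list. Each gene had 1 peak in each list within 1 kb of a start, or of a gene end for TEAD1, TEAD4 and CCN1, and all of these peaks were shared. Over all protein-coding genes 61.3% had such a peak in both lists, 1.50% in knockout alone, 1.66% in control alone and 35.5% in neither. No genotype-only peak lay within 1 kb of an end of any other protein-coding gene, and 1 control-only peak lay within 1 kb of an end of its own gene, the far end of ANKRD1.

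The promoters of CCN2, ANKRD1 and YAP1 are shown as examples. They lay wholly inside shared peaks and hold the letters that TEAD factors recognise, as did those at the inner starts of AMOTL2 and AXL, which are not shown. Each promoter is the stretch of 250 bases before a start, read in the direction of the gene, from RefSeq on GRCh38.p14. Capitals mark matches to GGAATG, the core of the TEAD motif, and to TGANTCA, both searched on either strand. TGANTCA is a loose form of the AP-1 motif, in which N is any base. A stricter form, with only G or C in the middle, was not searched. They are CCN2 at chr6:131951373-131951622 (minus strand), ANKRD1 at chr10:90921088-90921337 (minus strand) and YAP1 at chr11:102110197-102110446 (plus strand).
CCN2: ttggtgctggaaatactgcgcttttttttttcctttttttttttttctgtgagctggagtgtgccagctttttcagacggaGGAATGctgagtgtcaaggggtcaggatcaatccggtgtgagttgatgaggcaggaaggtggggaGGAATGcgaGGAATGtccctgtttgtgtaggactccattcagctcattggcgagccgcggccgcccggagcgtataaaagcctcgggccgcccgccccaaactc
ANKRD1: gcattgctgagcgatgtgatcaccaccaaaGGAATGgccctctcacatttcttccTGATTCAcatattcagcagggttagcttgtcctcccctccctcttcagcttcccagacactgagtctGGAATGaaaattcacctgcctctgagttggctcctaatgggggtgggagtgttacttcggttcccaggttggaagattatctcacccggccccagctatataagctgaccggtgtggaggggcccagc
YAP1: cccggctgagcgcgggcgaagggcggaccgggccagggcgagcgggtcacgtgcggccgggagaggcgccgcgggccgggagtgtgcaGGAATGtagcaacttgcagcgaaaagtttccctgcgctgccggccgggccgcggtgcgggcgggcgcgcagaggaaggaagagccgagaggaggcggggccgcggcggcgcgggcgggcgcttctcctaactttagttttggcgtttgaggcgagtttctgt

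CCN2 held 3 TEAD matches, whose first bases were at −169, −104 and −95, where −1 is the base just before the start. ANKRD1 held 2, at −220 and −128, with a match to the loose AP-1 form, reading TGATTCA, between them at −195. YAP1 held 1, at −162. Of the 10 promoter entries, which belong to 7 of the genes, 5 held a TEAD match in these 250 bases, against 11.9% of 35116 promoters. A match to the loose AP-1 form was held by 1, against 6.57%. The other entries with a TEAD match were the inner starts of AMOTL2 (at −69) and AXL (at −212), and those without were LATS2, both of WWTR1 and the outer starts of AMOTL2 and AXL. A match is a run of letters and not a bound site, and no match says only that these letters are not in the window.

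YAP1 (chromosome 11, 102110447 to 102233424) had no genotype-only peak in either list when all peaks were used. This did not hold at other settings: 3 knockout peaks and 1 control peak lost their partner at a −log10 q of 5 or more, 2 and 2 did in the top 30000 peaks, and 2 and 1 were less than 50% covered by the other list. The knockout list had 11 peaks summing to 42.8 kb and the control list 10 peaks summing to 38.1 kb, and each overlapped a peak of the other list by at least 1 bp. The start lay in the widest and strongest of them, a peak of 13.5 kb in knockout (102109267 to 102122801, pileup 136, percentile 95.1) and of 12.4 kb in control (102109063 to 102121466, pileup 99.0, percentile 97.8).

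Inside the gene, 4 further peaks recurred in both lists. The strongest was at 102175254 to 102180242 in knockout (pileup 114, percentile 91.3) and at 102176391 to 102180621 in control (pileup 56.5, percentile 85.3), with its centre 67.3 kb from the start in knockout and 68.1 kb in control. The widest beyond the gene reached an end of BIRC3, an inhibitor of apoptosis. There the control list had 1 peak of 9.45 kb (102312343 to 102321791, pileup 62.2), and the knockout list had 2 in its place, of 7.91 kb (pileup 73.9) and 2.56 kb (pileup 14.5). The extra knockout peak at this gene is thus the second of this pair, at a place the control list also covered in part.

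WWTR1 (chromosome 3, 149517235 to 149724788), which encodes TAZ, had the most knockout-only peaks of the 10 genes, 4 of its 16 knockout peaks, against 1 control-only peak of 13 control peaks. At a −log10 q of 5 or more there were 2 against 1, fewer knockout-only peaks than at YAP1 and AMOTL2 (3 each), and when 50% of a peak had to be covered there were 10 against 3. All 4 knockout-only peaks had no control peak within 1 kb. The strongest by fold, of 2.74 kb (149554108 to 149556843, pileup 22.3, percentile 34.6), lay inside the gene, 15.4 kb from the nearest control peak. The others were short and weak: 149621008 to 149621493 (pileup 10.6), 149736128 to 149736671 (pileup 12.0) and 149530999 to 149531231 (pileup 9), the last near the lowest pileup of its list, 8. The control-only peak (149471635 to 149472052, pileup 9.07) lay 439 bp from a knockout peak and so counted as a partner once a gap of 1 kb was allowed.

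Acetylation of WWTR1 sat at an inner start. The annotated start at 149658025 was covered in both lists, by a knockout peak of 3.78 kb (149655833 to 149659610, pileup 111, percentile 90.8) and by a control peak of 5.16 kb (149654631 to 149659787, pileup 61.0, percentile 87.8). The other start in the table, at 149703273, had no peak within 32.9 kb in the knockout list or within 43.5 kb in the control list. The widest peak of the locus lay deeper in the gene, 11.3 kb in knockout (149572139 to 149583469, pileup 87.5) and 10.4 kb in control (149572259 to 149582669, pileup 50.5). Summed peak length was 34.3 kb in knockout and 26.6 kb in control, a ratio of 1.29.

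TEAD1 (chromosome 11, 12674421 to 12944737), a DNA-binding partner of YAP and TAZ, had the largest gap in acetylated length, 24.4 kb in the knockout list against 37.0 kb in the control list, a ratio of 0.66. The gap was widest in 1 stretch inside the gene. There the control list had a single peak of 12.3 kb (12683527 to 12695872, pileup 34.3, percentile 66.1). The knockout list had 3 peaks in its place, of 1.05, 1.19 and 3.60 kb, summing to 5.84 kb, and the last of them (12692162 to 12695765) had a pileup of 99.3, percentile 87.8. The same place was thus acetylated in both lists, as 1 block in control and in pieces in knockout.

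The lower-coordinate end of TEAD1 was covered by the strongest peak in both lists, at 12673171 to 12678235 in knockout (pileup 120, percentile 92.6) and 12673345 to 12680313 in control (pileup 45.6, percentile 77.3). The gene had 1 knockout-only peak of 14 (12802551 to 12803206, pileup 18.9, percentile 27) and 2 control-only peaks of 13. These were at 12814015 to 12816084 (pileup 8.89), the widest genotype-only control peak of the set at 2.07 kb, and at 12950266 to 12951157 (pileup 10.2), 48.9 kb from the nearest knockout peak.

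TEAD4 (chromosome 12, 2959397 to 3040676), another DNA-binding partner, had acetylation at its lower-coordinate end alone within the gene span. The peak there measured 6.98 kb in knockout (2958124 to 2965107, pileup 71.4, percentile 77.5) and 7.87 kb in control (2957820 to 2965688, pileup 65.4, percentile 89.8). The strongest knockout peak of the window (2875944 to 2878849, pileup 124) lay at the ends of FOXM1 and RHNO1, neighbouring genes, and its control counterpart had a pileup of 63.8.

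The 1 knockout-only peak of TEAD4, at 3116667 to 3118224, was the strongest by fold of all 12, and the single one in the upper 50% of its list (pileup 28.1, fold 7.05, fold percentile 61.1). It lay 4.69 kb from a control peak, and 158.0 kb from the lower-coordinate end of TEAD4, 76.0 kb outside the gene. Between it and TEAD4 was a shared peak at an end of the neighbour TSPAN9 (3076567 to 3077948 in knockout), so it cannot be given to TEAD4 alone. Against it stood 3 control-only peaks, at 3101695 to 3102576, 3132887 to 3133416 and 3137286 to 3137620, with pileups of 8.08, 9.44 and 11.6. These too lay beyond that TSPAN9 end. In all, the knockout list had 7 peaks (16.2 kb) at TEAD4 and the control list 9 (19.0 kb).

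LATS2 (chromosome 13, 20973036 to 21061586), the kinase that restrains YAP and is itself a YAP target, had a short, high-ranking peak at its start. It measured 2.37 kb in knockout (21059912 to 21062283, pileup 156, percentile 97.2) and 3.73 kb in control (21059018 to 21062748, pileup 76.9, percentile 93.9), and by fold it stood at percentile 99.7 of the knockout list and 99.4 of the control list. Elsewhere the gene had the highest count of control-only peaks together with AXL, 4 of 9 control peaks, against 2 knockout-only of 7 knockout peaks, but at a −log10 q of 5 or more it had 0 knockout-only and 1 control-only.

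Those genotype-only LATS2 peaks were all weak. The knockout-only ones (20882578 to 20882954 and 21069985 to 21070222) had pileups of 17.9 and 16.8. The control-only ones had pileups from 7.59 to 11.6, and 2 of them, at 20998055 to 20998615 and 21031217 to 21031686, lay inside the gene. The remaining pair was at 20968989 to 20969241 and 21143935 to 21144197. A shared peak inside the gene measured 1.38 kb in knockout (21016609 to 21017987, pileup 14.1) and 2.63 kb in control (21016304 to 21018931, pileup 22.8). The widest peak of the window lay at an end of SAP18, 4.14 kb in knockout (21137512 to 21141648) and 3.78 kb in control (21137624 to 21141404). Summed length was 12.6 kb in knockout and 16.6 kb in control, a ratio of 0.76.

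AMOTL2 (chromosome 3, 134355345 to 134375417), an angiomotin-family scaffold that holds YAP at junctions and is induced by it, was acetylated from end to end. A single peak covered 100% of the gene in each list, 21.9 kb wide in knockout (134354135 to 134376069, width percentile 99.9, pileup 82.9) and 20.6 kb in control (134355147 to 134375718, width percentile 99.8, pileup 46.0). This was the widest peak of the 10 loci in both lists. Over all protein-coding genes the median share of the gene covered was 3.46% in each list, and 1.28% of genes in knockout and 1.87% in control were covered in full.

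Downstream of AMOTL2, in its direction of transcription, lay further wide shared peaks: 134324627 to 134331850 in knockout (7.22 kb, pileup 124) with 134324408 to 134332707 in control (8.30 kb, pileup 63.3), and 134308563 to 134318238 in knockout (9.68 kb, pileup 89.9) with 134308604 to 134317851 in control (9.25 kb, pileup 57.2). Summed length at the locus was the highest of the 10 genes in both lists, at 50.1 kb in knockout, only 0.068 kb more than in control. Each list had 10 peaks, of which 1 was genotype-only, at 134444087 to 134444617 in knockout (pileup 15.0) and 134291320 to 134292127 in control (pileup 8.70).

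CCN1 (chromosome 1, 85580761 to 85583950), a secreted matricellular protein also called CYR61, had the highest pileup of all the member peaks in the knockout list. That peak covered the whole gene, 10.9 kb wide (85575244 to 85586182, pileup 236, percentile 99.8). In the control list the gene lay in a peak of 16.0 kb (85569439 to 85585472, pileup 89.4, percentile 96.5), which extended further on the lower-coordinate side, where the knockout list had a separate peak of 355 bp (85572340 to 85572694, pileup 15.2). Both gene-covering peaks also came within 1 kb of an end of DDAH1, so they cannot be given to CCN1 alone.

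On the higher-coordinate side of CCN1 stood a row of 4 shared peaks. The widest measured 8.84 kb in knockout (85605675 to 85614517, pileup 110, percentile 90.6) and 8.93 kb in control (85605666 to 85614597, pileup 87.2, percentile 96.1). The window had 1 knockout-only peak of 11 (85550289 to 85552076, pileup 25.9, percentile 41.5) and 1 control-only peak of 10 (85521459 to 85521723, pileup 8.59). Summed length was 37.3 kb in knockout and 38.8 kb in control.

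CCN2 (chromosome 6, 131948176 to 131951372), the related secreted protein also called CTGF, had the fewest peaks, 4 in the knockout list and 3 in the control list. The peak over its start measured 6.88 kb in knockout (131948886 to 131955769, pileup 71.2, percentile 77.4) and 7.16 kb in control (131948486 to 131955640, pileup 35.6, percentile 67.7), and 98.1% of the knockout peak was covered in control. It contains the promoter stretch printed above with its 3 TEAD matches. The other shared peaks lay 83.3 and 87.7 kb from the gene in knockout and 83.2 and 88.4 kb in control, and the 1 knockout-only peak (131995682 to 131995993, pileup 12.5, percentile 8.88) lay 40.0 kb from the nearest control peak. Summed length was 10.7 kb in knockout and 9.43 kb in control.

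ANKRD1 (chromosome 10, 90912096 to 90921087), a nuclear ankyrin-repeat protein, had a peak over its start that measured 6305 bp in knockout (90916707 to 90923011, pileup 66.3, percentile 75.0) and 4245 bp in control (90918323 to 90922567, pileup 38.7, percentile 70.9). The knockout peak reached further on both sides, so control peaks covered 67.3% of it while it covered all of the control peak. The next peak upstream behaved alike, at 4.72 kb in knockout (90928128 to 90932846, pileup 72.8) and 3.44 kb in control (90928969 to 90932413, pileup 55.7). Summed length was 17.1 kb in knockout and 13.7 kb in control, a ratio of 1.25.

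The strongest peak of the ANKRD1 window belonged to a neighbour, at an end of HTR7, with a pileup of 128 in knockout and 83.3 in control. The knockout list had 1 genotype-only peak of 5 (90850419 to 90850887, pileup 11.2), and the control list 2 of 6, at 90912480 to 90913031 (pileup 7.62), by the far end of the gene, and 90935505 to 90935829 (pileup 9).

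AXL (chromosome 19, 41219223 to 41261766), a receptor tyrosine kinase linked to invasion and drug resistance, had no knockout-only peak among 7 knockout peaks and 4 control-only peaks among 11 control peaks. Both annotated starts lay in 1 wide peak, 13.2 kb in knockout (41218162 to 41231314, pileup 193, percentile 99.1) and 15.9 kb in control (41218045 to 41233931, pileup 128, percentile 99.5). The knockout peak was covered in full by the control peak, which extended further into the gene. A peak as strong lay at the higher-coordinate end of AXL, with a pileup of 228 in knockout (41261290 to 41267864) and 128 in control (41261268 to 41268720), but it also lay at an end of HNRNPUL1 and cannot be given to AXL alone.

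The 4 control-only peaks of AXL were at 41237983 to 41238591, 41248050 to 41248908, 41301817 to 41302156 and 41335182 to 41335531, with pileups of 12.2, 12.3, 8.47 and 9.88. The first pair lay inside the gene and stood at fold percentiles of 0.305 and 0.539, among the lowest of the control list. The third lay 40.1 kb outside AXL, between the peaks at ends of HNRNPUL1. None of the 4 had a −log10 q of 5 or more, and among peaks that did, AXL had 1 knockout-only and 1 control-only peak, each left without its weaker partner. Summed length was 37.3 kb in knockout, 98.4% of it covered in control, and 44.8 kb in control, 82.0% of it covered in knockout.

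**Figure D3:**
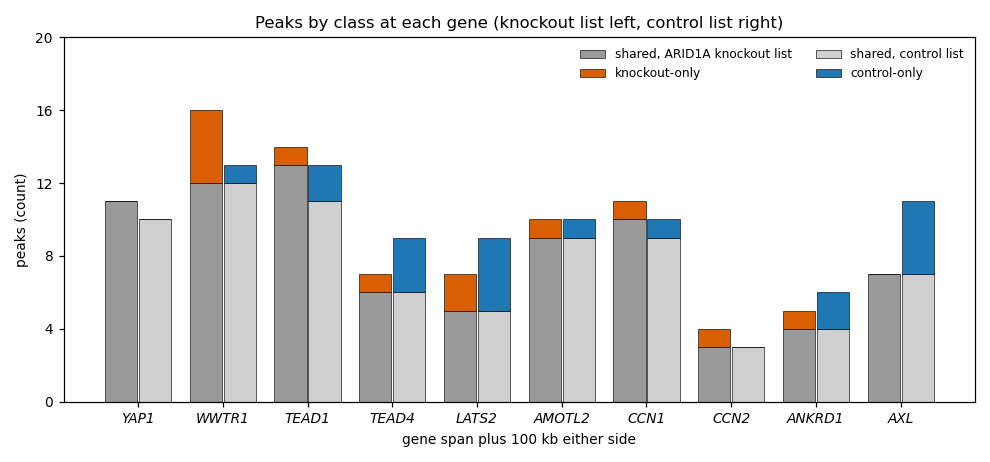
Number of peaks (y axis) at each gene's span plus 100 kb, with the ARID1A knockout list left and the control list right in each pair. Grey parts are shared peaks and coloured parts are genotype-only peaks: knockout-only peaks are most frequent at WWTR1 (4), control-only peaks at LATS2 and AXL (4 each), and YAP1 has none. All peaks are counted, with no threshold on q beyond that of the lists.

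Across the 10 genes, then, no direction was shared by all. Summed length was higher in knockout at 5 genes, namely YAP1, WWTR1, AMOTL2, CCN2 and ANKRD1, and higher in control at the other 5, with a median ratio of 0.98. Over all protein-coding genes 37.4% had the higher length in knockout and 55.4% in control, and the median ratio, over the 18436 genes with any control peak, was 0.93. Knockout-only peaks outnumbered control-only peaks at 2 genes, WWTR1 and CCN2, the reverse held at 5, and 3 were equal, while over all protein-coding genes 31.2% had more knockout-only and 36.1% more control-only peaks. This tally turned round at a −log10 q of 5 or more, with more knockout-only peaks at 6 genes, more control-only peaks at 1 and 3 equal, against 38.8% and 17.3% of all protein-coding genes. By role, the ratio was 1.29 and 1.12 for the coactivator genes WWTR1 and YAP1 and 0.66 and 0.86 for the TEAD1 and TEAD4 genes. For the inhibitor genes LATS2 and AMOTL2 it was 0.76 and 1.0. The 4 secreted, nuclear and receptor targets ranged from 0.83 for AXL to 1.25 for ANKRD1. The spread of the ratio over all genes was not computed, so no difference between roles is read from these values.

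**Figure D4:**
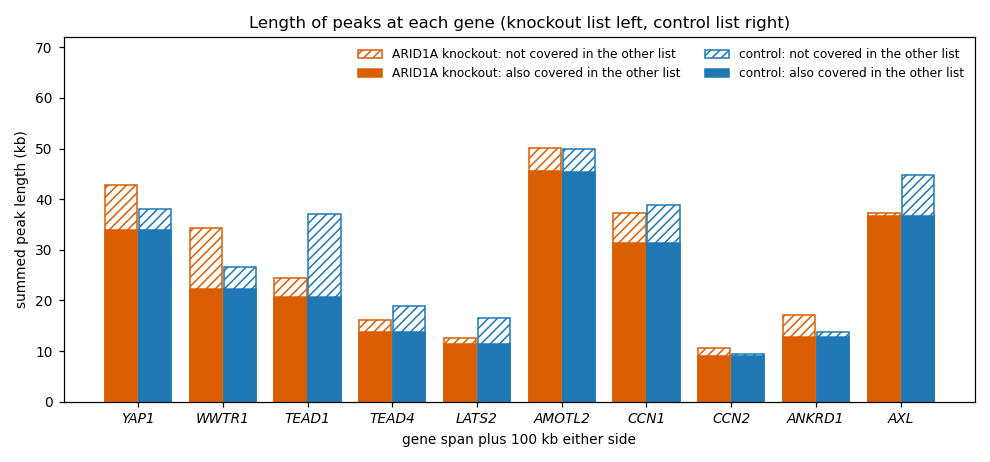
Summed peak length in kb (y axis) at each gene's span plus 100 kb, with the ARID1A knockout list left and the control list right. Filled parts are also covered by peaks of the other list and hatched parts are not; the hatched part is largest for TEAD1 in the control list, whose 37.0 kb is 56.0% covered, and small for AXL in the knockout list, whose 37.3 kb is 98.4% covered.

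Other genes of the pathway were read from a list of 50. Of these, 42 had a peak at a start in both lists (a gene end for the 12 genes without an annotated start, as above), 1 in knockout alone, none in control alone and 7 in neither. Their windows held 92 knockout-only peaks of 511 (18.0%) and 81 control-only peaks of 487 (16.6%), against 15.2% and 16.5% in the windows of all protein-coding genes. At a −log10 q of 5 or more they held 88 knockout-only peaks of 386 (22.8%) and 20 control-only peaks of 312 (6.41%), against 15.7% and 8.01%. In the top 30000 peaks of each list by q, 56 of 372 were knockout-only (15.1%, against 10.5%). There 41 of 352 were control-only (11.6%, against 13.1%), and 18 genes had more knockout-only and 17 more control-only peaks. The size of the imbalance thus depended on the setting, and the threshold of 5 bears unequally on the lists. All 9 genes grouped as Hippo kinases and their close partners, such as LATS1, STK4 and NF2, had a peak at a start in both lists, for STK3 at a gene end. With all peaks used, the windows of these 9 genes held 8 knockout-only peaks of 82 (9.76%, against 15.2%) and 9 control-only peaks of 81 (11.1%, against 16.5%). The gene with a peak in knockout alone was AMOT, a scaffold related to AMOTL2, whose whole window held 1 knockout peak (chromosome X, 112840760 to 112841458, pileup 11.3) and no control peak.

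Among the 13 upstream and junction regulators, 28 of 141 knockout peaks were knockout-only (19.9%, against the 15.2% of all gene windows) and 18 of 129 control peaks were control-only (14.0%, against 16.5%). Among the 6 other TEAD genes and TEAD cofactors, the counts were 6 of 29 (20.7%, against 15.2%) and 6 of 27 (22.2%, against 16.5%). VGLL3, a TEAD cofactor of the vestigial-like family, had the largest excess in that group: 4 of 5 knockout peaks were knockout-only and summed peak length was 10.8 kb in knockout, against 2 control peaks of 0.85 kb in all. The strongest of the 4 by fold, at 87088721 to 87090223 on chromosome 3, had a fold of 10.2 and a pileup of 47.0.

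The 22 other YAP target genes gave 50 knockout-only peaks of 259 (19.3%) and 48 control-only peaks of 250 (19.2%). All gene windows gave 15.2% and 16.5%. The largest differences towards knockout-only were at DOCK5 (7 knockout-only against 1 control-only), RBMS3 (6 against 1), EDN1, the endothelin gene (5 against 1), and TGFB2, a TGF-beta ligand (4 against 0), besides VGLL3. Those towards control-only were at DLC1 (0 knockout-only against 8 control-only), CRIM1 (1 against 8) and ARHGEF17 (1 against 4). At CRIM1 the peaks summed to 94.3 kb in knockout and 133 kb in control, and at DLC1 to 48.8 kb in knockout and 80.8 kb in control. DLC1 had no peak within 1 kb of a gene end in either list, and its strongest control-only peak by fold had a pileup of 12.2. Excesses of genotype-only peaks among these targets were thus found in both directions. The genes named are the extremes of the list of 50. Their counts were not set against the spread over all genes, corrected for gene length or listed by gene at the q threshold.

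As a check on the cell line, peaks at the starts of the mesenchymal and basal markers VIM, CD44, EGFR, ZEB1, FOSL1 and CAV1 were present in both lists, for FOSL1 at a gene end. The luminal and epithelial genes PGR and CDH1 had none in either list, while ESR1, GATA3, FOXA1 and EPCAM had one in both (for CDH1 and EPCAM gene ends were used), so a peak at a start does not by itself separate these classes. ARID1A itself had a peak at its start in both lists, and a peak list cannot check the loss of a protein.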

How the data were processed

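Per the submitters' processing notes, the tools were Bowtie2 2.3.5.1 and MACS2 2.2.6 and the build was hg38. Their options, read filters, library depth and any pooling of replicates are not given in the sources used here. The authors deposited 1 list per genotype whose columns are, by their headers, each peak's length, its pileup (a coverage signal), its fold enrichment (a ratio) and its p-value and q-value as −log10. The p-value was not used. Depth being unknown, intervals cover counting error over peaks only.

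Peaks of chromosomes 1 to 22 and X were used, with 1-based hg38 coordinates. Gene spans came from RefSeq on GRCh38.p14 (the hg38 assembly) and starts from its promoter table, which held 7 of the 10 genes. A peak was shared if it overlapped a peak of the other list by at least 1 bp. Classing was tested on simulated intervals. The genes and the pathway list were chosen with earlier results of these data known. Named by rule were all 10 genes, each one's peaks at the start, strongest and widest peaks and lone genotype-only peaks, and the pathway genes with a start peak in 1 list alone or the 3 largest differences in each direction, ties included. Other genotype-only peaks were named after their values were seen. Alternatives were another overlap, threshold and window. Python 3.11.15, numpy 2.4.6, pandas 2.3.3, scipy 1.17.1 and matplotlib 3.10.9 were used.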

Additional observations from a re-analysis of the deposited data

How the results depend on the processing

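The number of genotype-only peaks at the 10 genes depended on the overlap, the threshold and the window, and the cause was not tested beyond what each setting removes. When at least 50% of a peak had to be covered, 25 of 92 knockout peaks were knockout-only (27.2%) and 25 of 94 control peaks control-only (26.6%). With only peaks whose −log10 q was 5 or more in each list, 14 were knockout-only and 5 control-only, and 83.6% of the knockout and 81.4% of the control length was covered in the other list. With the top 30000 peaks of each list, 8 were knockout-only and 7 control-only, and 85.3% and 81.2% were covered. Counting only peaks of fold 5 or more left 1 knockout-only of 46 and 0 control-only of 45. Windows of 50 kb left 8 knockout-only peaks of 64 and 11 control-only peaks of 64, with 85.4% and 80.2% of the length covered. Windows of 10 kb left 5 knockout-only peaks of 40 and 8 control-only peaks of 40. The length was then 158 kb in knockout and 171 kb in control, 85.1% and 78.5% covered. No share over all peaks was computed for the 50% overlap, the fold threshold or the narrower windows. The counts at those settings therefore cannot be read as particular to these genes. Leaving out 1 gene at a time gave 8 to 12 knockout-only and 14 to 18 control-only peaks. All 10 genes kept a start peak in both lists with windows of 2 kb and at the q threshold. At the 50 pathway genes the q threshold gave 88 knockout-only peaks of 386 (22.8%) and 20 control-only of 312 (6.41%). The windows of all protein-coding genes, counted in the same way, gave 15.7% and 8.01%, and the whole lists 23.2% and 10.2%. With the top 30000 peaks the pathway genes gave 15.1% and 11.6%, against 10.5% and 13.1% in the windows of all protein-coding genes. No paired analysis was possible because each genotype had 1 peak list that names no replicate, and for the same reason no replicate could be left out.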

Other observations

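Peaks at the ends of neighbouring genes made up 19 of the 92 knockout peaks and 19 of the 94 control peaks at the 10 loci, and all of them were shared. The share over all peaks at gene ends was not computed, so these counts cannot be read as particular to these loci. An unlike measure, counted over genes, was at hand. Of all protein-coding genes, 61.3% had a start peak in both lists, 1.50% in knockout alone and 1.66% in control alone. The neighbouring ends included those of TGFB1 and B9D2 in the AXL window, with a pileup of 142 in knockout (percentile 95.9) and 88.6 in control (percentile 96.4), of XPO4 and SAP18 beside LATS2, and of RASSF10 beside TEAD1. The RASSF10 peak measured 791 bp in knockout (pileup 28.8) and 1092 bp in control (pileup 24.1).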
